A study of Mus musculus with 8 samples.

Results

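The genes described here encode the light-detection machinery of cone photoreceptors in the mouse retina. They were taken by symbol from the deposited gene table and number 8 of its 26824 genes: the opsins Opn1sw and Opn1mw, the transducin subunits Gnat2, Gnb3 and Gngt2, the phosphodiesterase subunits Pde6c and Pde6h, and the cone arrestin Arr3. All 8 are protein-coding genes with at least 1001 counts in every library, and all passed the filter on low counts. RNA sequencing was done on retinas of mice aged 1 month, from 3 wild-type (WT) mice and 5 with the genotype Kv8.2 KO, with 2 retinas in each sample and no treatment in either group. Kv8.2 is the product of Kcnv2, a silent voltage-gated potassium channel subunit that joins Kv2 subunits in the inner segments of rods and cones. The labels give neither the knockout allele nor the strain or sex of the mice. The series text says that 2 KO samples were left out of the submitters' own comparison and does not say which, so all 5 (KO 2 to KO 6) were used.

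In a cone, light turns an opsin into an activator of transducin, a G protein of alpha, beta and gamma subunits. The freed alpha subunit takes the inhibitory subunit off the phosphodiesterase, whose catalytic subunits then break down cyclic GMP, and the cyclic nucleotide-gated channels close. Arrestin binds the phosphorylated opsin and ends its signal. Rods run the same cascade with their own set of paralogs, and mouse cones often hold both opsins, with the short-wavelength one favoured in the ventral retina.

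The region around a transcript start (250 bases before it to 50 after) is shown for 3 genes. Pde6h and Gnat2 had lower transcripts in the libraries labelled KO, and Opn1mw had a level close to that of WT. The sequences are RefSeq's for build GRCm38.p6, and the submitters' processing notes name GRCm38. The source listed 5 of the 8 genes and lacked Gnb3, Gngt2 and Pde6c, so no gene with a called rise could be shown. Capitals mark the letters TAATCC or their reverse complement GGATTA, the core sequence recognised by the photoreceptor homeodomain factor CRX. Pde6h lies at chr6:136954273-136954572, Gnat2 at chr3:108092816-108093115 and Opn1mw at chrX:74127216-74127515, all on the plus strand. The start that RefSeq's table uses lies inside the full span of the gene for Pde6h and Gnat2, whose outermost models begin further upstream.
Pde6h: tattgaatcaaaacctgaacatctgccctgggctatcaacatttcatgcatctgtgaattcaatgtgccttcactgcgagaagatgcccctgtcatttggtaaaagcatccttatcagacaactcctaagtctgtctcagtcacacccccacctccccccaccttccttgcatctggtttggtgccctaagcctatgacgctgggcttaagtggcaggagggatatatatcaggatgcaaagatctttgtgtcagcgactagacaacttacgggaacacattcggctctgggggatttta
Gnat2: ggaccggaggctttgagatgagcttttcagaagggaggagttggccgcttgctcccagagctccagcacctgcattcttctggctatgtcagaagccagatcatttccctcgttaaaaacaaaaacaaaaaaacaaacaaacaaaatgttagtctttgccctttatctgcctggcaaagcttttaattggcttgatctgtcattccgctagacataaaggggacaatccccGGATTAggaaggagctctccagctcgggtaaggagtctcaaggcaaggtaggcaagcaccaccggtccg
Opn1mw: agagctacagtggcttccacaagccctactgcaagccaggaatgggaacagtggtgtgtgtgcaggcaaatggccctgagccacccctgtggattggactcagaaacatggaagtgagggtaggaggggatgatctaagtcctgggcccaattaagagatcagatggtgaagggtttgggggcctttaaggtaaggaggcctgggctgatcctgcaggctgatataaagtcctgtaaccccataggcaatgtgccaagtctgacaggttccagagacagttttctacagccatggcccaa
Gnat2 was the single one of the 5 listed genes with a match, and its GGATTA began 19 bases before the transcript start used. Of all 32851 regions of this length, 7.06% held a match. The Opn1sw and Arr3 regions had none, which says no more than that these letters are not in these windows.

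The libraries held 17759146 to 25188870 counts. Kcnv2 was at 519, 551 and 526 CPM (counts per 1e+06 counts of the library, after TMM scaling, which evens out differences in library composition) in WT 1 to WT 3 and at 585, 447, 398, 409 and 409 CPM in KO 2 to KO 6, so no library lacked the transcript and the gene-level count does not tell the groups apart. The KO libraries are therefore named by their label. KO 4, KO 5 and KO 6 were as alike as the WT libraries were among themselves (root-mean-square difference in log2 CPM over genes 0.48 to 0.53, against 0.51 to 0.53), while KO 2 and KO 3 differed from each other by 0.72 and from KO 4 to KO 6 by 0.74 to 0.85. Mitochondrial genes took 7.09% to 7.92% of counts in WT, 6.52% in KO 2, 5.23% in KO 3 and 3.03% to 3.70% in KO 4 to KO 6. Lens transcripts made up 3.96% of the counts of KO 3 and at most 0.115% elsewhere, and WT 3 was the one library with more than 3 counts of the Y-linked Ddx3y (2132 counts) and had 9 counts of Xist, where the other 7 had at least 30144. Because of these differences the values of the 8 genes and their ratios are also given for KO 2 and KO 3 and for KO 4 to KO 6 against the same WT libraries. The 2 comparisons share those controls and are not independent. The sets were formed from these same values, and KO 2 and KO 3 are grouped although they are not alike. The small spread among KO 4 to KO 6, and so the p-values there, depends in part on that choice. In whole retina, fewer cones and less RNA per cone cannot be told apart.

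Cone phototransduction transcripts did not move in one direction. Pde6h, Gngt2 and Gnat2 fell, Pde6c rose, and Opn1sw, Opn1mw, Gnb3 and Arr3 did not pass the test. Of the 4 calls only that of Pde6h held when any 1 WT library was left out. Called genes (edgeR's quasi-likelihood test with all 8 libraries, Benjamini-Hochberg adjusted p under 0.05) were thus 4 of 8, beside 7.58% of the 20167 genes tested. By direction, 3 were lower, beside 2.84% of all genes, and 1 was higher, beside 4.74%. The median log2 fold change of the 8 genes was -0.53, against 0.00073 for all genes tested. In KO 2 and KO 3 against WT, 2 of the 8 were called (Pde6h and Arr3), beside 0.891% of genes. In KO 4 to KO 6 against WT, 7 of the 8 were called, Opn1mw being the exception, beside 42.8% of genes, so the count for the cone genes there stands against a large share of all genes. Every library labelled KO lay below every WT library for 4 genes (Gnat2, Gngt2, Pde6h and Arr3), where 10.1% of all genes did so, and above for Gnb3 and Pde6c, where 10.8% did.

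**Figure D1:**
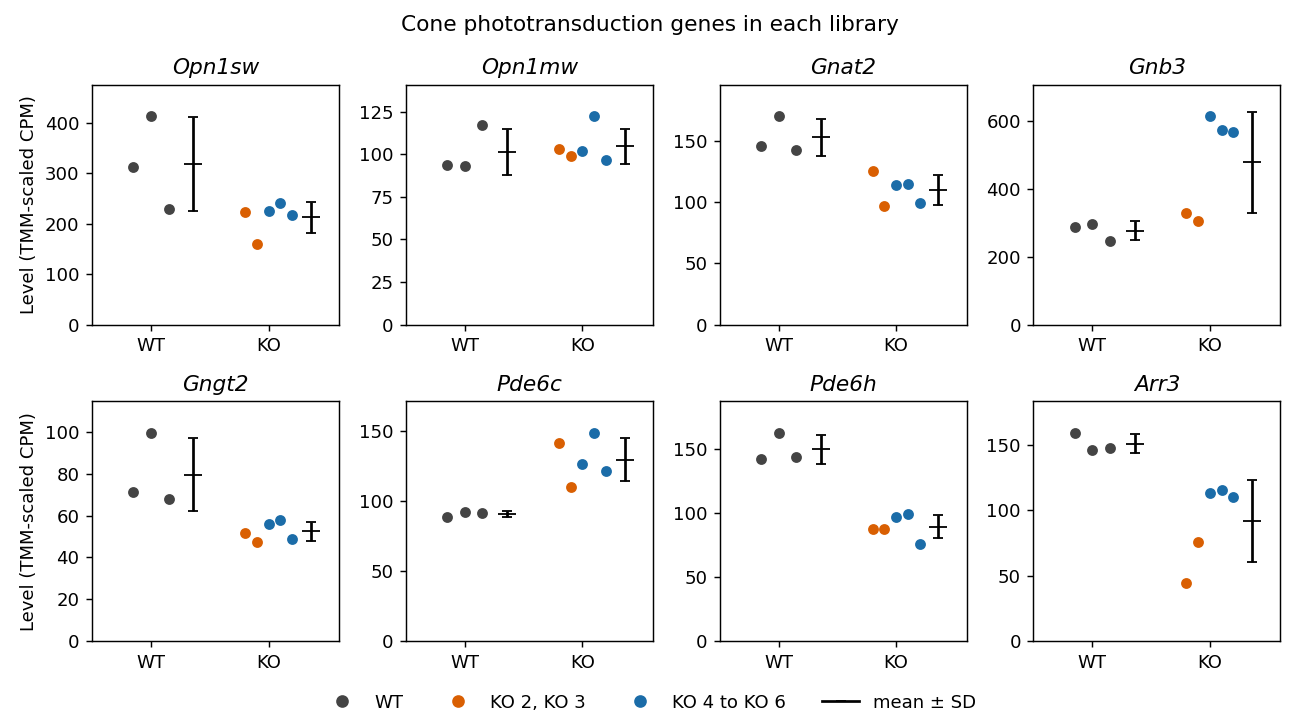
Level of each cone gene (TMM-scaled CPM, axis from 0) in the 3 WT and 5 KO libraries, 1 point per library, with the mean and SD of each group. Pde6h runs from 75.9 to 99.0 CPM in KO and from 142 to 162 CPM in WT, while Gnb3 in KO splits into 305 and 329 CPM (KO 3 and KO 2) and 568 to 613 CPM (KO 4 to KO 6).

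Neither opsin passed the test. Opn1sw, the short-wavelength opsin (ENSMUSG00000058831, chromosome 6), was at 313, 413 and 228 CPM in WT 1 to WT 3 and at 223, 159, 224, 240 and 216 CPM in KO 2 to KO 6. WT 1 and WT 2 stood above every library labelled KO, but WT 3 did not, so the groups overlapped. WT averaged 318 ± 92.2 CPM (SD, n = 3) against 212 ± 31.3 CPM for KO (SD, n = 5). On the log2 scale the difference was -0.58 (SE 0.18, edgeR adjusted p = 0.0759), and it moved to -0.34 without WT 2 and to -0.77 without WT 3. It was -0.74 in KO 2 and KO 3 (edgeR adjusted p = 0.178) and -0.48 in KO 4 to KO 6, where it was called (edgeR adjusted p = 0.0229). Opn1mw, the middle-wavelength opsin (ENSMUSG00000031394, X chromosome), was at 93.7, 93.3 and 117 CPM in WT and at 103, 99.2, 102, 122 and 96.7 CPM in KO 2 to KO 6. The highest WT library was WT 3, the one where Opn1sw was lowest. Means were 101 ± 13.6 and 105 ± 10.2 CPM, with a log2 fold change of 0.05 (SE 0.11, edgeR adjusted p = 0.825), whose sign changed under several settings. It was -0.0017 in KO 2 and KO 3 and 0.09 in KO 4 to KO 6. Without WT 3, the library with Y-linked transcripts, this X-linked gene had a log2 fold change of 0.16 (edgeR adjusted p = 0.457), and the part of sex in its values was not tested.

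Opn1sw made up 76.9%, 81.5% and 66.1% of the opsin counts of WT 1, WT 2 and WT 3, and 68.3%, 61.5%, 68.8%, 66.3% and 69.1% of those of KO 2 to KO 6. Wilson 95% intervals, which cover counting error alone, spanned 80.8% to 82.3% in WT 2 and 65.0% to 67.1% in WT 3, so WT libraries differed by far more than counting error. WT 3 lay inside the range of the libraries labelled KO. As a log2 ratio of counts, Opn1sw over Opn1mw was 1.62 ± 0.60 in WT and 1.01 ± 0.20 in KO, a difference of -0.60 with a two-sided exact permutation p of 0.179 (adjusted 0.238 over 8 ratios). It was -0.34 without WT 2, -0.93 without WT 3, -0.72 in KO 2 and KO 3 and -0.52 in KO 4 to KO 6.

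Of the transducin subunits, Gnat2 and Gngt2 fell and Gnb3 did not pass the test. Gnat2, the cone alpha subunit that carries the signal to the phosphodiesterase (ENSMUSG00000009108, chromosome 3), was at 146, 170 and 143 CPM in WT and at 126, 96.7, 114, 115 and 98.9 CPM in KO 2 to KO 6. No library labelled KO reached the lowest WT value. It fell by 0.47 on the log2 scale (SE 0.11, edgeR adjusted p = 0.0318), to 110.0 ± 12.1 from 153 ± 15.1 CPM. Without any 1 WT library it was no longer called (edgeR adjusted p from 0.0919 to 0.164). The difference was -0.46 in KO 2 and KO 3 and -0.47 in KO 4 to KO 6.

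Gngt2, the cone gamma subunit, which anchors the complex at the membrane (ENSMUSG00000038811, chromosome 11), was at 71.2, 99.5 and 67.9 CPM in WT and at 51.7, 47.6, 55.8, 58.0 and 48.9 CPM in KO 2 to KO 6. WT 2 stood out above the other WT libraries, and all 5 libraries labelled KO were below 60 CPM. The fall was 0.60 on the log2 scale (SE 0.13, edgeR adjusted p = 0.0254), from 79.5 ± 17.4 to 52.4 ± 4.43 CPM. Without WT 2 it was -0.40 and no longer called (edgeR adjusted p = 0.117). KO 2 and KO 3 gave -0.68, not called (edgeR adjusted p = 0.102), and KO 4 to KO 6 gave -0.54, called (edgeR adjusted p = 0.00369).

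Gnb3, the beta subunit, works in cones and also in ON bipolar cells (ENSMUSG00000023439, chromosome 6). It was at 286, 298 and 246 CPM in WT and at 329, 305, 613, 574 and 568 CPM in KO 2 to KO 6. All libraries labelled KO lay above WT, KO 2 and KO 3 narrowly and KO 4 to KO 6 widely. The log2 fold change was 0.79 (SE 0.24, edgeR adjusted p = 0.0695) over all libraries, 0.20 in KO 2 and KO 3 and 1.09 in KO 4 to KO 6, where it was called (edgeR adjusted p = 6.92e-07). With an offset for GC content it was 0.55. Summed over 10 ON bipolar marker genes, none of them at 0 in any library, the level was 1708 to 1788 CPM in WT, 2013 CPM in KO 2, 1633 CPM in KO 3 and 1913 to 1993 CPM in KO 4 to KO 6. Of these markers, Gpr179 rose (log2 fold change 0.48, edgeR adjusted p = 0.0443) and Gng13, the gamma subunit that joins Gnb3 in ON bipolar cells, fell (-0.81, edgeR adjusted p = 0.0276). With all libraries edgeR called 4.74% of all genes higher and 2.84% lower. The marker calls depended on the fit. Of the 10 markers, edgeR called 9 in KO 4 to KO 6 against WT (6 higher) and 7 without KO 3 (6 higher), limma voom called 8 (6 higher) and DESeq2 4 (2 higher). These fits called 42.8%, 20.0%, 40.9% and 15.5% of all genes. In contrast, no ON bipolar marker was called higher without any 1 WT library or without KO 4, KO 5 or KO 6, with library size alone, with no filter on low counts or with the GC or length offset, and none was called lower without WT 1, WT 2, KO 4 or KO 5. The part of bipolar transcripts in the Gnb3 values was not tested.

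The inhibitory and catalytic subunits of the cone phosphodiesterase changed in opposite directions. Pde6h, the small inhibitory subunit (ENSMUSG00000064330, chromosome 6), was at 142, 162 and 144 CPM in WT and at 87.2, 87.6, 96.7, 99.0 and 75.9 CPM in KO 2 to KO 6. The groups were well apart, and KO 2 and KO 3 fell among KO 4 to KO 6. Averages were 149 ± 11.3 CPM for WT (SD, n = 3) against 89.3 ± 9.17 CPM for KO (SD, n = 5), a fall by 40.2% (log2 fold change -0.74, SE 0.10, edgeR adjusted p = 0.00478). It was the single cone gene called in all 18 fits that left out 1 library or 2 KO libraries, with log2 fold changes between -0.84 and -0.66. KO 2 and KO 3 alone gave -0.77 (edgeR adjusted p = 0.0164) and KO 4 to KO 6 alone gave -0.71.

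Pde6c, the catalytic subunit that hydrolyses cyclic GMP (ENSMUSG00000024992, chromosome 19), was at 88.8, 92.2 and 91.9 CPM in WT and at 141, 110.0, 126, 149 and 122 CPM in KO 2 to KO 6. WT values were nearly equal, and every library labelled KO exceeded them. Pde6c rose by 0.51 on the log2 scale (SE 0.11, edgeR adjusted p = 0.0251), from 90.9 ± 1.89 to 130 ± 15.6 CPM. The difference was 0.47 in KO 2 and KO 3, not called there (edgeR adjusted p = 0.102), and 0.55 in KO 4 to KO 6. Gnat2, Pde6c and Gngt2 were called in 9, 9 and 7 of the 18 leave-out fits, and leaving out any 1 WT library ended the call of each. The calls also ended without KO 4 (all 3 genes), KO 5 (Gnat2 and Pde6c) or KO 6 (Gnat2 and Gngt2), with edgeR adjusted p-values of up to 0.164 for Gnat2, 0.121 for Pde6c and 0.117 for Gngt2 when a single library was left out.

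Arr3, the cone arrestin (ENSMUSG00000060890, X chromosome), was at 159, 146 and 148 CPM in WT and at 44.2, 76.0, 113, 116 and 110.4 CPM in KO 2 to KO 6. All 5 libraries labelled KO were below WT, with KO 2 and KO 3 far below the other 3. Averages were 151 ± 7.25 CPM for WT and 91.9 ± 31.1 CPM for KO. Over all libraries its log2 fold change of -0.72 (SE 0.26) was not called (edgeR adjusted p = 0.103). It was called in KO 2 and KO 3 against WT (-1.33, edgeR adjusted p = 0.0293), in KO 4 to KO 6 against WT (-0.41, edgeR adjusted p = 0.000137) and over all libraries without KO 2 (-0.54, edgeR adjusted p = 0.0358). Whether the 2 sets of KO libraries differ from each other was not tested. Other tools also called more of the cone genes: DESeq2 and limma voom with library quality weights each called 7 of 8, adding Opn1sw, Gnb3 and Arr3 to the 4 above, beside 15.5% of all genes called by DESeq2 and 40.9% by limma voom.

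**Figure D2:**
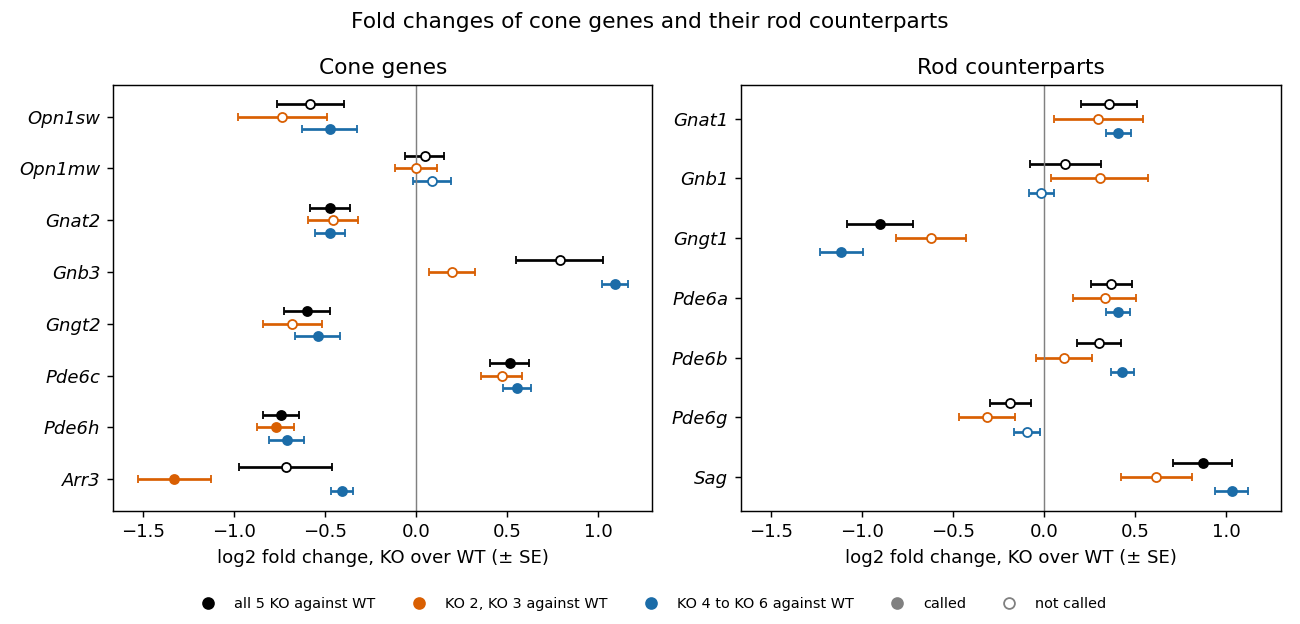
Log2 fold change (KO over WT, ± SE) of the 8 cone genes and 7 rod counterparts from edgeR, with all KO libraries (black), KO 2 and KO 3 (orange) or KO 4 to KO 6 (blue) against the same 3 WT libraries; filled points have an adjusted p under 0.05. Pde6h is filled in all 3 comparisons, Arr3 runs from -1.33 (orange) to -0.41 (blue), and Gnb3 from 0.20 to 1.09.

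The rod versions of these genes, measured in the same libraries, gave a partly parallel and partly opposite picture. Of 7 rod counterparts, Sag rose and Gngt1 fell, and 5 did not pass the test (2 of 7 called, beside 7.58% of all genes), with a median log2 fold change of 0.30. DESeq2 called 3 of the 7 (Pde6a higher as well), and 5 were called by limma voom, by edgeR without KO 3 and by edgeR on KO 4 to KO 6 (Gnat1, Pde6a and Pde6b higher as well). These fits called 15.5%, 40.9%, 20.0% and 42.8% of all genes. Sag, the rod arrestin, was at 2427, 2774 and 2100 CPM in WT and at 4259, 3194, 4743, 5079 and 4977 CPM in KO 2 to KO 6. Every library labelled KO was above WT, the reverse of the order for Arr3, with a log2 fold change of 0.87 (SE 0.16, edgeR adjusted p = 0.0169).

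Gngt1, the rod gamma subunit, was at 1540, 1936 and 1343 CPM in WT and at 992, 1096, 806, 758 and 644 CPM in KO 2 to KO 6. It fell by 0.90 on the log2 scale (SE 0.18, edgeR adjusted p = 0.0222), so the gamma subunits of both photoreceptor types were lower. Gngt1 was not called with KO 2 and KO 3 alone (-0.62, edgeR adjusted p = 0.158), nor was Sag (0.61, edgeR adjusted p = 0.165). Both lost their call without any 1 WT library or without KO 4, and Gngt1 also without KO 5, with edgeR adjusted p-values of up to 0.0973 for Sag and 0.120 for Gngt1. Gnat1 had a log2 fold change of 0.36, Gnb1 of 0.12, Pde6a of 0.37, Pde6b of 0.30 and Pde6g, the rod inhibitory subunit, of -0.19, and none of these 5 was called (edgeR adjusted p from 0.0689 to 0.746), though Pde6g was called lower with the GC offset (edgeR adjusted p = 0.0362).

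Ratios of gene pairs within a library do not depend on how libraries were scaled, and 8 were tested. The ratio of inhibitory to catalytic cone subunit, Pde6h over Pde6c, was 1.599, 1.76 and 1.57 in WT and 0.616, 0.796, 0.765, 0.664 and 0.622 in KO 2 to KO 6. Pde6h counts thus exceeded Pde6c counts in every WT library and were under them in every library labelled KO. The difference was -1.25 on the log2 scale (means 0.71 ± 0.09 and -0.54 ± 0.17), with -1.23 in KO 2 and KO 3 and -1.27 in KO 4 to KO 6. Its two-sided exact permutation p was 0.0357, the smallest that 3 against 5 libraries can give, and 0.0714 after Benjamini-Hochberg adjustment over the 8 ratios.

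Pairs of a cone gene and its rod counterpart were compared in the same way. Arr3 over Sag was 0.0657, 0.0527 and 0.0703 in WT and 0.0104, 0.0238, 0.0238, 0.0228 and 0.0222 in KO 2 to KO 6. KO 2 stood alone at the low end and the other 4 KO libraries were close together. This was a difference of -1.66 on the log2 scale (-1.99 in KO 2 and KO 3, -1.45 in KO 4 to KO 6), the largest of the 8 ratios. Gnat2 over Gnat1 differed by -0.81 (-0.71 and -0.88 in the same sets) and Pde6h over Pde6g by -0.56 (-0.46 and -0.63), again with no overlap of the groups. These 3 ratios had the same exact permutation p of 0.0357 (adjusted 0.0714), so no ratio of the 8 passed adjustment. That p is the smallest possible here. With 4 of the 8 ratios at it, a pass was out of reach however far apart the groups lay. Gngt2 over Gngt1 (0.33, exact p = 0.250), Pde6c over Pde6b (0.21, exact p = 0.107) and Gngt2 over Gnat2 (-0.11, exact p = 0.536) overlapped between groups. In KO 2 and KO 3 and then in KO 4 to KO 6, these 3 ratios differed by -0.053 and 0.58, by 0.35 and 0.12, and by -0.19 and -0.051.

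**Figure D3:**
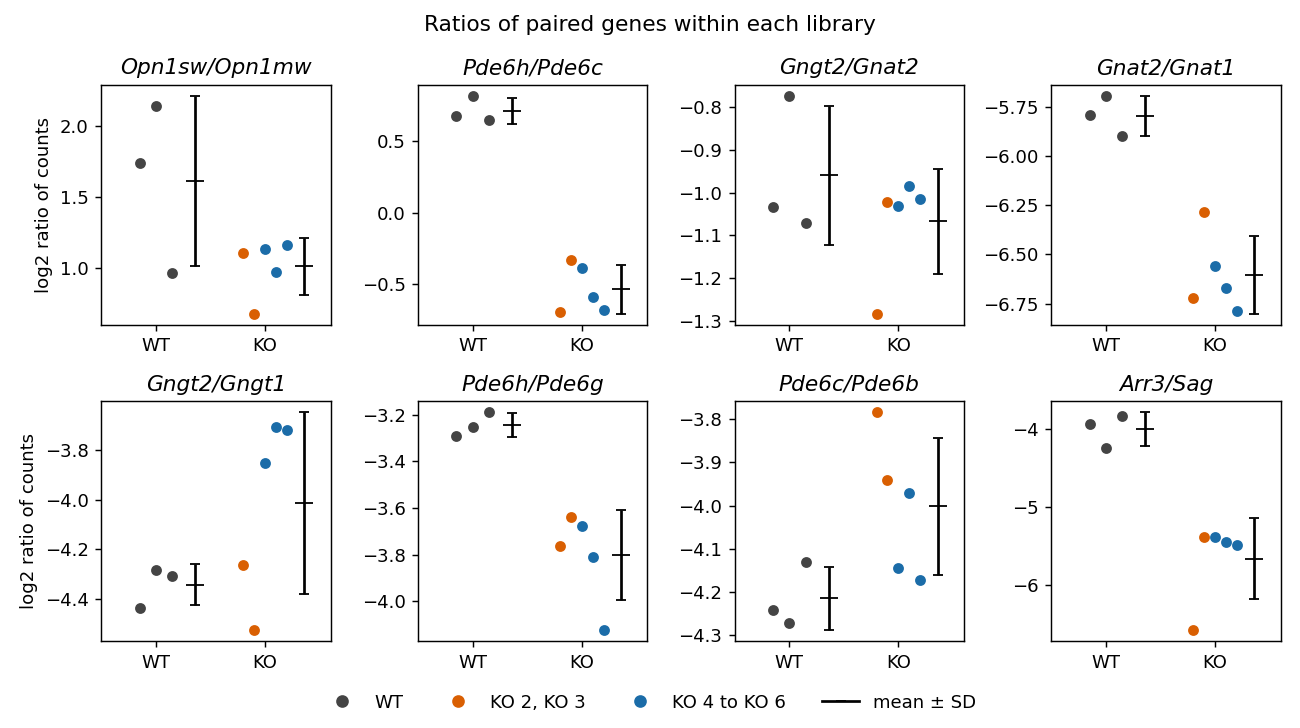
Log2 ratio of the counts of 2 genes in each library, for 3 pairs of cone genes and 5 pairs of a cone gene over its rod counterpart, with mean and SD of each group; the vertical axes differ between panels. WT and KO points do not overlap for Pde6h/Pde6c, Gnat2/Gnat1, Pde6h/Pde6g and Arr3/Sag.

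Across the 8 libraries, the profile of Gngt2 lay near those of Opn1sw, Gnat2 and Pde6h. Likeness was measured as the root-mean-square difference of log2 CPM after centring each gene on its own mean, over 8 libraries and against 11256 other genes whose log2 CPM averaged 3 or more. Gngt2 was the nearest gene to Opn1sw (0.15), ahead of A930003A15Rik (0.15), which was itself nearest to Gngt2 (0.11) before Oard1 (0.12). Among all those genes Gngt2 ranked 6 from Pde6h (0.14), and Gnat2 ranked 4 from Gngt2 (0.13). Ranks depend on the gene they start from: from Gnat2, Gngt2 ranked 32, Pde6h 278 and Opn1sw 832, while from Opn1sw, Gnat2 ranked 3 and Pde6h 71, and from Pde6h, Gnat2 ranked 31 and Opn1sw 702. Pde6h was nearest to Glb1l2 (0.11) and 3010001F23Rik (0.12), and Gnat2 to Klhl23 (0.07) and Gdpd1 (0.08).

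The other 4 genes had no cone gene among their nearest genes, the closest being rank 432 (Pde6h from Arr3). Pde6c was nearest to Lrrc59 and Apbb1 (0.05 each), Opn1mw to Harbi1 (0.07) and Mtrr (0.07), Gnb3 to Hspa1a (0.10) and Comtd1 (0.11), and Arr3 to A330023F24Rik (0.08) and Erdr1x (0.16). The 2 phosphodiesterase subunits differed by 0.62, which ranks Pde6h 10871 of 11256 from Pde6c. These figures describe 8 libraries of which several stand apart, and they carry no test.

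**Figure D4:**
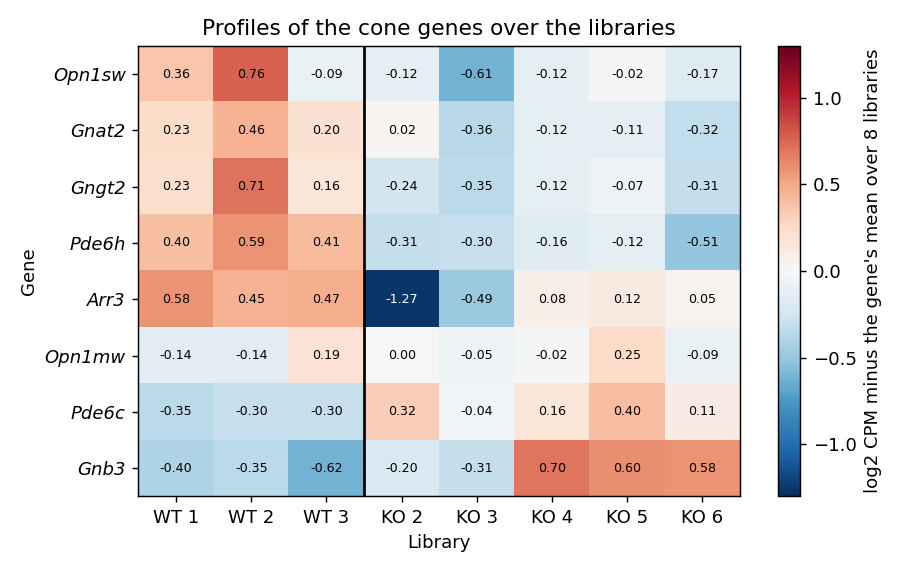
Log2 CPM of each cone gene minus its own mean over the 8 libraries (colour and printed value; red above, blue below the mean; the line separates WT from KO). Gngt2, Gnat2, Pde6h and Opn1sw share a maximum in WT 2 (0.46 to 0.76), Arr3 is lowest in KO 2 (-1.27), and Gnb3 is high in KO 4 to KO 6 (0.58 to 0.70).

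Levels of different genes were compared per kilobase of the longest principal transcript model in GENCODE M21. In WT the order was Gnb3 (150 ± 14.6 CPM per kilobase), Opn1sw (132 ± 38.3), Arr3 (111 ± 5.34), Opn1mw (82.6 ± 11.1), Gnat2 (74.4 ± 7.34), Gngt2 (50.1 ± 11.0), Pde6c (35.2 ± 0.730) and Pde6h (25.1 ± 1.90). Within 1 SD the neighbours Gnb3 and Opn1sw, Opn1sw and Arr3, and Opn1mw and Gnat2 overlapped. In the libraries labelled KO the order per kilobase was Gnb3 (259 ± 80.2), Opn1sw (88.2 ± 13.0), Opn1mw (85.3 ± 8.30), Arr3 (67.6 ± 22.9), Gnat2 (53.6 ± 5.89), Pde6c (50.2 ± 6.02), Gngt2 (33.0 ± 2.79) and Pde6h (15.03 ± 1.54), with the opsins overlapping, Arr3 overlapping both opsins, Gnat2 and Pde6c, and Gnat2 overlapping Pde6c. The Pde6h model is 5940 bases long, so a shorter expressed form would place the gene higher.

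None of 16 other pathway genes, for the channel and exchanger, cyclic GMP synthesis, opsin shut-off, transducin deactivation and the handling of cascade proteins (Pdc, Unc119, Pde6d and Aipl1), was called by edgeR with all libraries, where 4 higher and 2 lower had an unadjusted p under 0.05. DESeq2 called 5 (4 higher) and limma voom 10 (6 higher), as did edgeR on KO 4 to KO 6 against WT, in fits that called 15.5%, 40.9% and 42.8% of all genes. With edgeR, 3 were called lower without KO 2 (Cngb3, Gucy2f and Pdc, beside 13.9% of genes), 4 higher without KO 3 (Guca1a, Guca1b, Rgs9 and Aipl1, beside 20.0%), Rcvrn lower with the GC offset and Guca1a higher with the length offset. Their median log2 fold change was 0.05. The cone channel subunits Cnga3 (0.30, edgeR adjusted p = 0.234) and Cngb3 (-0.37, edgeR adjusted p = 0.249) pointed in opposite directions without passing in that fit.

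Of 6 further cone markers, Otop3 rose and Kcne2 fell, and Thrb, Rxrg, Sall3 and Ccdc136 did not pass, so 2 of 6 were called beside 7.58% of all genes. Sall3 and Ccdc136 were also called higher by edgeR in KO 4 to KO 6 against WT and without KO 3, and by limma voom, which called Rxrg higher too, in fits that called 42.8%, 20.0% and 40.9% of all genes. Otop3, a proton channel, was at 5.04 to 5.08 CPM in WT libraries and 7.70 to 11.3 CPM in those labelled KO (log2 fold change 1.00, SE 0.15, edgeR adjusted p = 0.00770), and was called in 13 of the 18 leave-out fits. Kcne2, an accessory potassium channel subunit, went from 57.6 ± 10.7 to 40.8 ± 4.17 CPM (log2 fold change -0.50, SE 0.12, edgeR adjusted p = 0.0414) and was called in 3 of the 18. Leaving out WT 1 or WT 2 ended the calls of both genes (edgeR adjusted p of 0.0557 and 0.0558 for Otop3), leaving out WT 3, KO 4, KO 5 or KO 6 ended that of Kcne2 (up to 0.0958), and neither was called with KO 2 and KO 3 alone (edgeR adjusted p = 0.0865 for Otop3 and 0.204 for Kcne2). Kcne2 also lost its call with no filter on low counts and with the GC or length offset (edgeR adjusted p from 0.0530 to 0.0561).

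Markers of other cells give the setting of these values. Of all genes, edgeR with all libraries called 7.58%, DESeq2 15.5% and limma voom 40.9%. Summed levels of 7 further rod markers were 7733 to 8381 CPM in WT and 6177 to 9200 CPM in KO, and none was called (edgeR; 1 lower at an unadjusted p under 0.05, none by DESeq2, 2 lower by limma voom). Müller glia markers spanned 3655 to 3855 CPM in WT and 3718 to 5515 CPM in KO. Of the 8, edgeR called 2 higher (Kcnj10 and Sox9), beside 4.74% of all genes, DESeq2 called 3 higher and limma voom 5. Most of the sum came from 1 gene that edgeR did not call, at 2439 CPM on average in WT. Microglia markers spanned 41.2 to 46.7 and 47.7 to 66.4 CPM, with 2 of 6 higher (Tmem119 and Csf1r), beside 4.74% of all genes. With library size alone or with no filter on low counts, 1 was called. Amacrine and horizontal cell markers spanned 784 to 817 and 744 to 977 CPM. Of the 8, 1 was lower (Calb1), beside 2.84% of all genes, and none was called with no filter on low counts. None of 6 ganglion cell genes (754 to 831 and 734 to 1001 CPM), 6 pigment epithelium genes (52.9 to 67.3 and 60.6 to 126 CPM) or 8 lens genes was called by edgeR, with 1, 2 and 0 at an unadjusted p under 0.05. DESeq2 called 0, 2 and 0 of them, beside 15.5% of all genes, and limma voom 4, 4 and 0, beside 40.9%. Lens genes reached 40669 CPM in KO 3 and 0.820 to 157 CPM in the other libraries labelled KO, with 3 of the 8 at 0 in some library, against 18.3 to 1163 CPM in WT. With the lens genes taken out before scaling, the same 4 cone genes were called, Pde6h at -0.74 and Opn1sw at -0.57. No gene of these 7 lists was called without WT 1, WT 2, WT 3, KO 4 or KO 5. In KO 4 to KO 6 against WT, where 42.8% of all genes were called, edgeR called 4 of 7 rod, 5 of 8 Müller glia, 2 of 6 microglia, 3 of 8 amacrine and horizontal, 4 of 6 ganglion cell and 5 of 6 pigment epithelium genes, and all 7 lens genes tested there were lower. With the GC offset 2 Müller glia, 1 rod, 1 ganglion cell and 1 pigment epithelium gene were called, and no microglia, amacrine or horizontal cell gene. The share of all genes called with that offset is not given here, so these counts cannot be weighed against it. The part of the other markers in the cone results was not tested.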

How the data were processed

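Total RNA of mouse retina was sequenced in 3 WT and 5 KO libraries. The authors deposited 1 table of estimated counts per gene as whole numbers, and per the submitters' processing notes Trim Galore, Salmon 1.10.2, DESeq2 and build GRCm38 were used, with no role or order given. Genes had at least 16 counts in total, 22121 of 26824 matched GENCODE M21, and 106 had no symbol. Strand and annotation release are not given in the sources used here.

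The deposited estimated counts were scaled by TMM and tested for KO against WT with edgeR 4.0.16 (R 4.3.3): filterByExpr, glmQLFit, glmQLFTest, Benjamini-Hochberg adjustment over 20167 genes, threshold 0.05, with SE from fold change and F. CPM is a gene's count for each 1e+06 scaled counts, and 3 counts equal 0.130 to 0.164 CPM. Log2 CPM used a prior count of 2. Ratios were tested by two-sided exact permutation (scipy 1.17.1, 56 divisions). The edgeR steps were tested on simulated data. Of the 31-base words of each cone gene, at most 3.65% (Gnat2) occur in another gene.

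The genes, lists and tests were chosen with earlier results of these data known. Genes named are the 8 cone genes, the rod counterparts, called genes of the cone lists, the 2 most similar profiles for each cone gene, and called genes of the other marker lists; 1 gene of these lists is not reported here. Gene positions are RefSeq's (GRCm38.p6). No 2 libraries of a group agreed within sampling noise (chi-square per degree of freedom 5.38 or more). Alternatives were other scalings, tools (DESeq2 1.42.0, limma 3.58.1) and filters, lens genes removed, libraries left out, and a replicate block for the numbers 2 and 3. Offsets for GC content and length were also used, taken from each gene's longest transcript model. For Gngt1 and Sag that model has 2976 and 4727 bases and the principal one 1183 and 1719, so these offsets are approximate. The crossed block was added after seeing the data.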

Additional observations from a re-analysis of the deposited data

Results flagged for a closer look

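Among the 5 libraries labelled KO, 16 values (8 levels and 8 ratios) were searched for a library set apart from the rest by more than 0.71 of the group's range. Chance gives about 1 such gap in 20, or 0.80 here, and 4 were found. Opn1sw was lowest in KO 3 (159 CPM, gap 0.746 of the range), the library with lens transcripts, where the other 4 held 216 to 240 CPM. Opn1mw was highest in KO 5 (122 CPM, gap 0.719). Gngt2 over Gnat2 was lowest in KO 2 (log2 ratio -1.28, gap 0.843), and so was Arr3 over Sag (-6.59, gap 0.915). KO 2 is also the KO library with the highest Kcnv2 level (585 CPM). No cause of these gaps was tested.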

How the results depend on the processing

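All 8 cone genes but Opn1mw kept the sign of their fold change under all 31 alternatives. Pde6h kept its call in 29 of them (edgeR or other adjusted p 1.03e-08 to 0.112), losing it in the fits of WT 2, WT 3, KO 2 and KO 3 with the replicate block (0.0803) and without it (0.112). Gnat2, Pde6c and Gngt2 kept theirs in 18, 18 and 17, while Gnb3, Arr3 and Opn1sw gained one in 8, 7 and 3. The number of cone genes called was 7 with DESeq2 and 7 with limma voom, 2 with KO 2 and KO 3 alone, 1 (Arr3) with the replicate block and 0 in the same 4 libraries without it, and 1 to 7 over the leave-out fits. Over all genes these counts were 3127, 8248, 180, 52 and 14, against 1529, and 118 to 8416 over the leave-out fits. Leaving out WT 1, WT 2 or WT 3 gave 132, 135 or 199 genes and 1 cone gene each. Leaving out KO 2, KO 3, KO 4, KO 5 or KO 6 gave 2781, 3992, 365, 388 or 531 genes and 6, 5, 1, 2 or 2 cone genes. The cause was not tested, and each of these fits, with more calls or with fewer, had 1 library less.

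Replicate numbers do not mark shared animals in the labels, and after subtraction of each group's mean, WT 2 and KO 2 correlated by -0.0044 over genes and WT 3 and KO 3 by -0.24. With the pairing crossed, chosen after seeing the data, 527 genes and 3 cone genes were called.

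Opn1mw, never called, turned negative with the replicate block (-0.047, also when crossed), without it (-0.055), with KO 2 and KO 3 alone (-0.0017) and with the GC offset (-0.028), and ran from -0.023 to 0.16 over the leave-out fits. Gngt2 over Gngt1 reversed in KO 2 and KO 3 alone (-0.053) and as a paired difference under the replicate block (-0.10), and Gngt2 over Gnat2 by medians (0.012). The other 6 ratios kept their direction in all 12 alternatives; with fewer than 3 against 5 libraries the exact test cannot reach the threshold.

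Depth does not limit these genes, which held 1001 or more counts in each library.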
